A study of Homo sapiens with 3 samples.

Results

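The 7 protein tyrosine phosphatase genes PTPN7, PTPN6, PTPN11, PTPRC, PTPN22, PTPN1 and PTPN2 were examined in wild-type KBM7 cells, out of 19974 genes that code for proteins (chromosomes 1 to 22 and X). KBM7 is a near-haploid human line established from chronic myeloid leukaemia, with a BCR-ABL fusion kinase. H3K27ac, an acetylation of active promoters and enhancers, and H3K4me3, a methylation found mainly at promoters, were mapped by chromatin immunoprecipitation and sequencing with 1 library each, beside 1 input library without antibody. All 3 libraries come from untreated cells of this line, and no second condition enters here. The list starts from PTPN7, which was chosen by a measured value, the highest ratio of H3K27ac to input signal among the deposited super-enhancers, and adds 6 related phosphatases with earlier results of these data known. For each gene the deposited peaks were taken that overlap its record in hg38 with 5 kb either side, together with the super-enhancers that name it as target. This gave 83 of 96659 H3K27ac peaks, 37 of 36951 H3K4me3 peaks and 2 super-enhancers that name a member, PTPN7 and PTPRC. With 1 library per mark there is no replicate error, no test was made, and the 95% intervals given are exact Poisson intervals for counting error only.

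Tyrosine phosphatases remove the phosphate groups that tyrosine kinases add, and so set the strength and length of receptor signals. PTPN6 (SHP-1) is the main brake of blood cell signalling and is recruited to inhibitory receptors through its SH2 domains, whereas its relative PTPN11 (SHP-2) carries growth factor signals on to RAS and ERK. PTPRC (CD45) is the abundant receptor phosphatase of white blood cells that keeps SRC family kinases ready to act. PTPN22 counters T cell receptor signalling with its partner CSK. PTPN7 (HePTP) is a phosphatase of blood cells that binds the MAP kinases ERK and p38. PTPN1 (PTP1B) and PTPN2 (TC-PTP) are close relatives, found in most tissues, that act on JAK kinases and on receptors such as the insulin receptor.

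The promoters below are shown because their base composition differs widely although each carried both marks. They run from 250 bases before to 50 bases after a start, 5′ to 3′ on the gene's strand, and come from RefSeq (GRCh38.p14). Capitals mark short motifs searched on both strands. For the ETS factors, which include PU.1 of blood cells, these were CCGGAA, the form common at widely used promoters, and AGGAAG, the form bound by PU.1. RUNX factors were represented by the letters TGTGGT, the GATA factors of blood progenitors by AGATAA, the E-box of helix-loop-helix factors by CAGCTG, the GC box of SP factors by GGGCGG, and the cyclic AMP response element by the letters TGACGT. Both ETS forms share a core, and no 2 matches overlapped in the members. RefSeq listed 9 starts for the members other than PTPN11.
PTPN7 start 1: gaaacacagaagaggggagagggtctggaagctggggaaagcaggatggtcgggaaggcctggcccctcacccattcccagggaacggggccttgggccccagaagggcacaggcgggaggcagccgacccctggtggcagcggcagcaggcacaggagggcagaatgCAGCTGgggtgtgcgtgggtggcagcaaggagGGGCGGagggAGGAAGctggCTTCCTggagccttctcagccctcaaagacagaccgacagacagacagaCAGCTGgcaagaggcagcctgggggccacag
PTPN6 start 2: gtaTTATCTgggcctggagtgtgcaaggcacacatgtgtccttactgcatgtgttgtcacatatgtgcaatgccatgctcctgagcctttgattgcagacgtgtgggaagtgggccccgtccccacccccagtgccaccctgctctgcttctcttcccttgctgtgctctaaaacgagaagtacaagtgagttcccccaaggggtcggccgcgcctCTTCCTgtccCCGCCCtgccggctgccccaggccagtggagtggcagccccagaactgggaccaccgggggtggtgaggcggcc
PTPN6 start 1: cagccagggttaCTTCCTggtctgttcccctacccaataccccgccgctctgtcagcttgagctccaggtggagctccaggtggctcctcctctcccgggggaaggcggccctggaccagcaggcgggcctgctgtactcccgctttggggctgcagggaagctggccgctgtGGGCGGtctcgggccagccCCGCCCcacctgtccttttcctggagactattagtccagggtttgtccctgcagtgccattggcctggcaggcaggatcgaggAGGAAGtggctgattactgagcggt
PTPRC start: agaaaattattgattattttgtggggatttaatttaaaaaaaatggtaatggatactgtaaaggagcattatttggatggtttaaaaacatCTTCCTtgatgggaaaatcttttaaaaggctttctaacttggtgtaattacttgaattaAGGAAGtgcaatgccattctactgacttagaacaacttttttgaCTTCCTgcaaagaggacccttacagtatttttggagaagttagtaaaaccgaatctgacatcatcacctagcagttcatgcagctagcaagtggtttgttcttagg
PTPN22 start: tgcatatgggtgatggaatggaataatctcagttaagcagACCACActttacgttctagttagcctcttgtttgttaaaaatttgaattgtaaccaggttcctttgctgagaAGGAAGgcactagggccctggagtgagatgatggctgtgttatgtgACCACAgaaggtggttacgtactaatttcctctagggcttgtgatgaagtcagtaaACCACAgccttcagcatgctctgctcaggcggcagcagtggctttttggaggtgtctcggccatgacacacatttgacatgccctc
PTPN1 start: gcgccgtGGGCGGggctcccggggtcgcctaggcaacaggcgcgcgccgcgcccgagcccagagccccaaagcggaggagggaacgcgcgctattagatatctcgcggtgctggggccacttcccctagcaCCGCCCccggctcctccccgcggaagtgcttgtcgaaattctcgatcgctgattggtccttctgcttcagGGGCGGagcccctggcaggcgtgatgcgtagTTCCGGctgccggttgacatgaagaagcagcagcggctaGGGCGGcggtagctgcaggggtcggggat
The windows lie at chr1:202160553-202160852 (minus strand) for PTPN7, at chr12:6951106-6951405 and chr12:6946327-6946626 (plus strand) for starts 2 and 1 of PTPN6, and at chr1:198638790-198639089 (plus strand) for PTPRC. Those of PTPN22 and PTPN1 lie at chr1:113871663-113871962 (minus strand) and chr20:50510133-50510432 (plus strand).

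AGGAAG, a short form of the sites of ETS factors, was found at 7 of the 9 listed starts, in PTPN7, PTPN6, PTPRC, PTPN22 and PTPN2, and in 33.5% of the 22132 promoters of protein-coding genes. The PTPRC promoter held 3 matches, with first bases at -159, -100 and -56 (the start is base 1). PTPN22 held TGTGGT 3 times on the other strand, at -210, -92 and -36, a motif found in 11.3% of promoters. The CpG-rich promoter of PTPN1 held GGGCGG 4 times (56.3% of promoters) and CCGGAA once on the other strand (21.2%). TGACGT was found at none of the 9 starts and in 8.92% of promoters. These matches describe the letters only and do not show binding.

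All 7 genes carried both marks within 1 kb of a start, where 61.8% of protein-coding genes did. H3K27ac within the record and 5 kb either side was also present at all 7, against 72.7% of genes, and H3K4me3 at all 7, against 76.4%; both marks were present there in 70.1% of genes. At a start alone, H3K27ac was found in 63.8% and H3K4me3 in 68.5% of genes. A super-enhancer overlapped the window at PTPN7, PTPN6 and PTPRC, against 3.45% of genes. The overlap at PTPN7 was fixed in advance by the choice of that gene, and the region at PTPN6 is assigned to ATN1. H3K27ac peaks numbered 29 at PTPN1, 22 at PTPRC, 9 at PTPN2, 8 at PTPN7, 7 at PTPN22, 5 at PTPN6 and 3 at PTPN11. H3K4me3 peaks numbered 11 at PTPRC, 6 at PTPN6, 5 at PTPN22 and PTPN1, 4 at PTPN7 and 3 at PTPN11 and PTPN2. The share of the window covered had another order. The 5 H3K27ac peaks of PTPN6 covered 89.1% of its window, which is 24740 bp long, and the 29 of PTPN1 covered 20.3% of 84859 bp. PTPN7 had 58.1% covered, PTPRC 31.7%, PTPN22 16.8%, PTPN2 5.13% and PTPN11 3.53%. The median of the 7, which include PTPN7, chosen by its H3K27ac signal, was 20.3%. That of the 14521 genes with H3K27ac in the window was 8.43%.

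**Figure D1:**
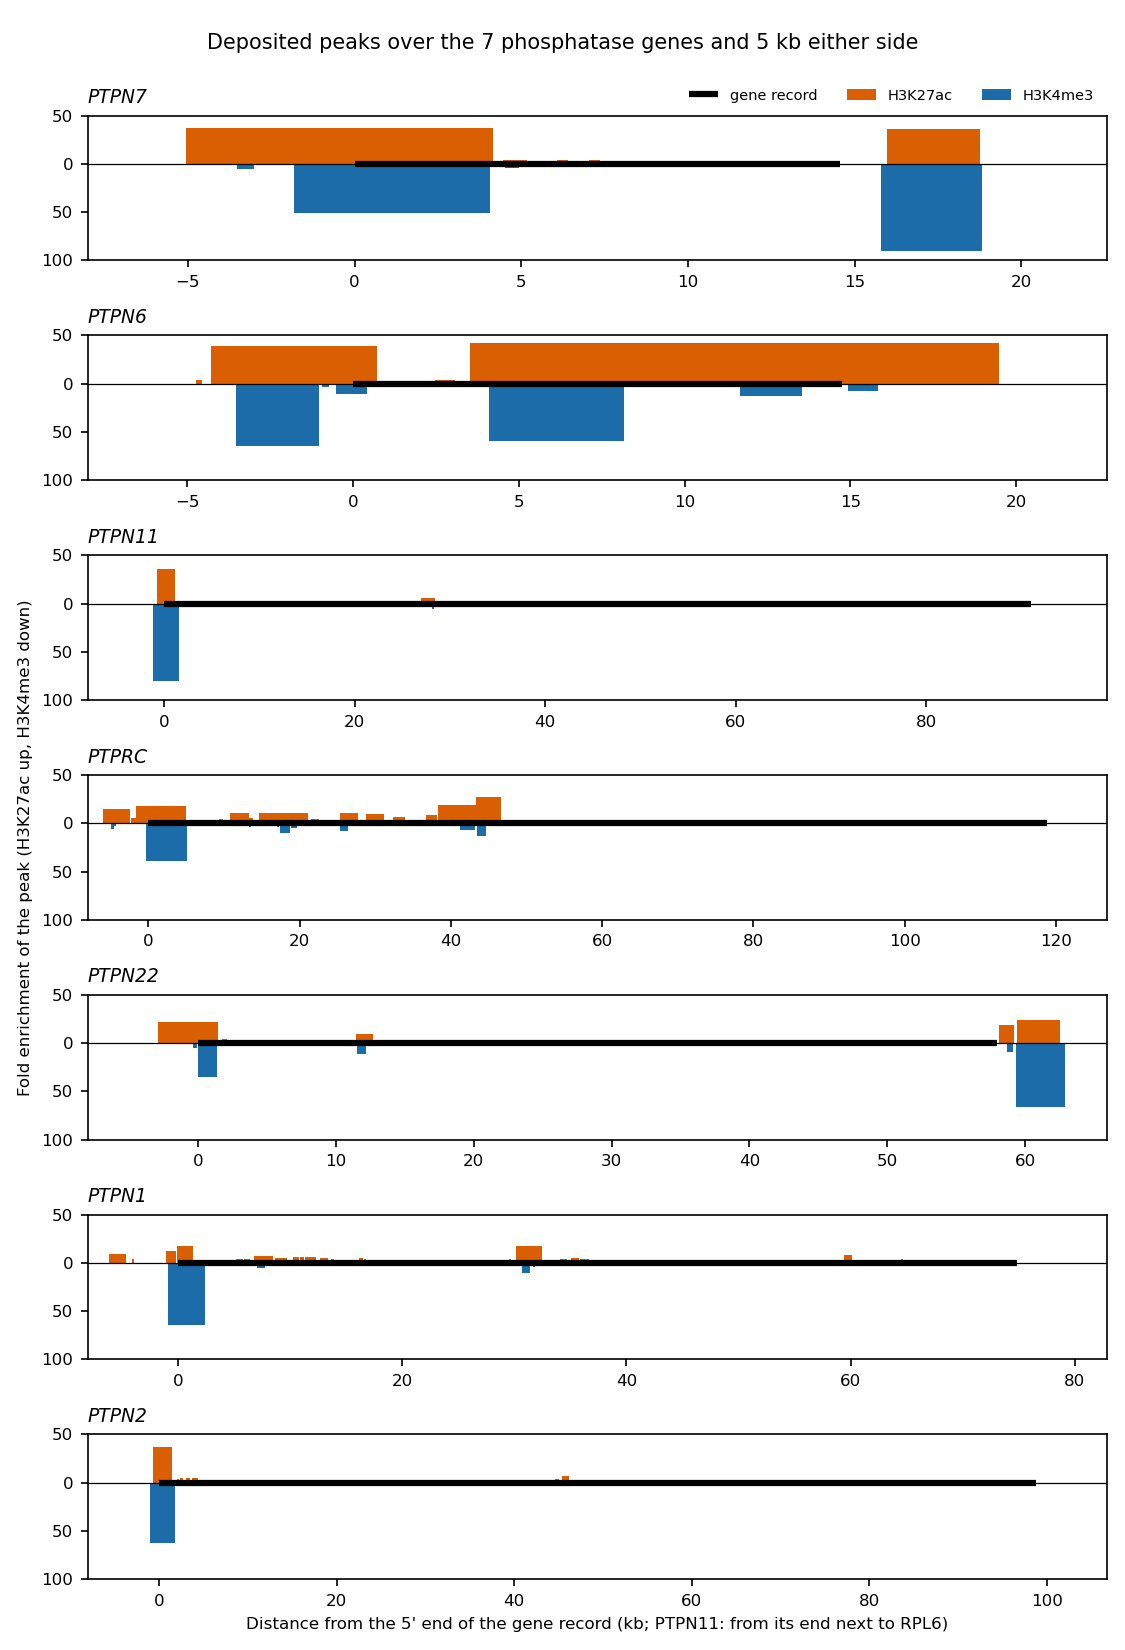
Deposited peaks along each of the 7 genes. The horizontal axis is the distance in kb from the 5′ end of the gene record (for PTPN11, whose strand is not listed, from the end next to RPL6), with a scale of its own for each gene; bars span a peak and their height is its fold enrichment at the summit, H3K27ac upwards and H3K4me3 downwards. PTPN6 is covered over most of its length, PTPRC over its 5′ part, and PTPN11 and PTPN2 mainly at the start.

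PTPN7, on chromosome 1 (202147013 to 202161588, minus strand), had a single broad acetylated interval over its starts. The H3K27ac interval of 9214 bp (202157436 to 202166649) had a fold enrichment of 37.6 over the expected background and 227 fragments at its summit (95% interval 198 to 259). It reached beyond the 5′ end of the record and covered that end and the 3 listed starts. Its summit was 205 bp from start 1. It ranked 228 by width in the H3K27ac list. H3K4me3 over the same starts was 5881 bp wide with a fold of 51.3 and 242 fragments (212 to 274), and ranked 287 by width. By fold PTPN7 stood at percentile 90.1 for H3K27ac and 29.6 for H3K4me3 among genes with the mark at a start, and by width at 98.9 and 97.4. The gene's interval was thus broad for both marks but high for H3K27ac alone.

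A further 6 H3K27ac peaks lay wholly inside PTPN7, had folds of 3.03 to 4.49 and held 13 to 19 fragments. H3K4me3 was absent from 5 of them.

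The super-enhancer assigned to PTPN7 (202156406 to 202169187) was short and dense. It was 12782 bp long, with 5183 bp in the gene record and 7599 bp beyond its 5′ end, and was number 529 by length, the longest being number 1. The total H3K27ac signal was 29282 and the input signal 1337, in deposited units of unstated scaling. The ratio of 21.9 was used to choose the member and is given as a description: the next were SPI1 (20.2), PRSS12 (18.5) and PIEZO1 (17.8), and the median of all regions was 8.11. The H3K27ac signal per base, 2.29, was number 3 of the table, and the median was 0.819. The input signal per base, 0.105, lay close to the median of 0.0996. By the difference between the signals, the authors' rank, it stood at 253. Shorter regions had higher ratios in general: the 53 regions of up to 20 kb, PTPN7 included, had a median ratio of 11.9, and the next highest among them was 16.6. H3K4me3 peaks covered 53.3% of the PTPN7 region, number 8 in the table, against a median of 14.7%.

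**Figure D2:**
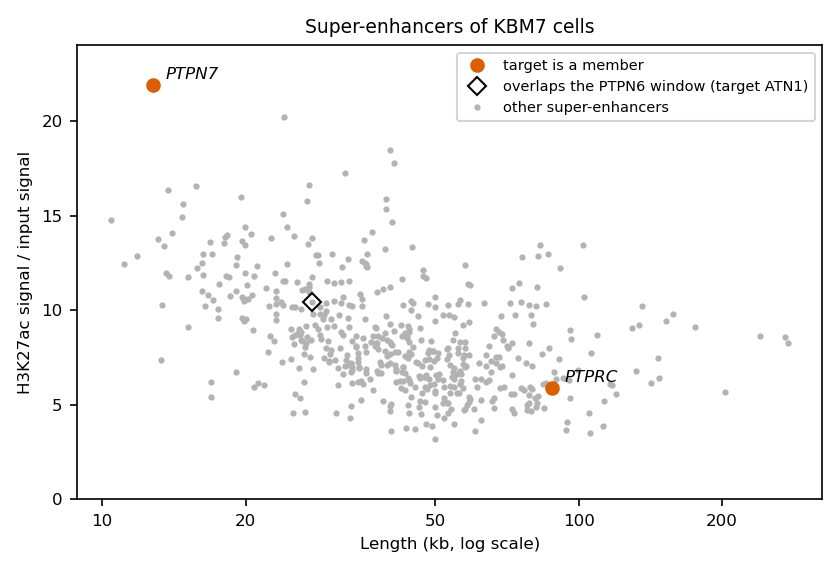
Ratio of total H3K27ac signal to total input signal (vertical axis) against length in kb on a log scale for all super-enhancers of the table, each point being 1 region. PTPN7 lies at the top left with a ratio of 21.9, PTPRC at the lower right with 5.89, and the region that overlaps the PTPN6 window, assigned to ATN1, at 10.4.

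PTPN6, on chromosome 12 (6946577 to 6961316, plus strand), had its strong H3K4me3 at the downstream of its 2 starts. The gene is known for a promoter used mainly in epithelial cells and a downstream promoter used in blood cells. RefSeq lists start 2 at 6951356 and start 1 at 6946577, 4779 bp apart. At start 2 the H3K4me3 peak had a fold of 59.1, 279 fragments (247 to 314) and a width of 4096 bp, of which 3403 bp lay downstream. At start 1 the peak had a fold of 11.2, 38 fragments (26.9 to 52.2) and a width of 949 bp. The summit at start 2 thus held 7.34 times the fragments of that at start 1, and the counting intervals did not overlap. H3K27ac did not separate the starts in this way, with a peak fold of 41.8 and 217 fragments on start 2, and 38.9 and 182 fragments on start 1. Neither H3K27ac summit lay close to its start: that of the peak on start 2 was 1997 bp away, and that of the peak on start 1 was 2333 bp away. The summit of the peak on start 1 was 222 bp from the start of the neighbour C12orf57, whose record ends 573 bp from that of PTPN6. The H3K4me3 peak nearest to that neighbour's start had a fold of 65.0.

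The H3K27ac interval over start 2 (6950103 to 6966055) was 15953 bp wide and ranked 33 by width among 96659. It began 1253 bp before that start and ran to 4739 bp past the end of the record. It held 2 further H3K4me3 peaks beyond the starts, with folds of 12.5 (6958258 to 6960123) and 7.23 (6961515 to 6962420). No super-enhancer of the table overlapped it. Of the 33 intervals at least as wide, 17 overlapped a super-enhancer and 16 did not. A super-enhancer assigned to ATN1 (6922125 to 6949648, signal ratio 10.4) covered start 1 and ended 454 bp before the wide interval, so that a super-enhancer overlapped the PTPN6 window without naming the gene.

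**Figure D3:**
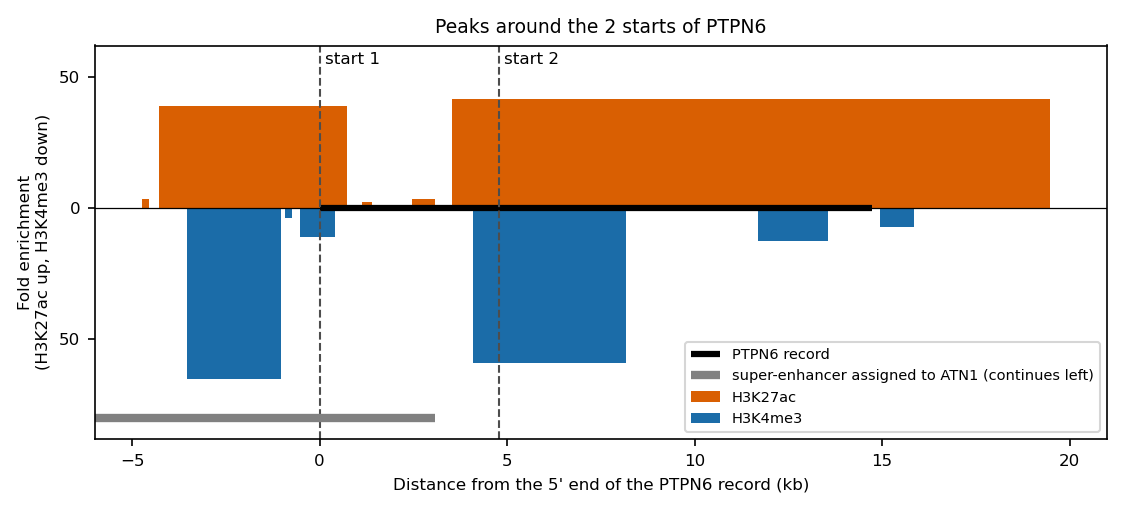
Peaks of both marks around the 2 listed starts of PTPN6 (dashed lines), by distance in kb from the 5′ end of the record; bar height is the fold enrichment at the summit, H3K27ac upwards and H3K4me3 downwards, and the grey line is the end of the super-enhancer assigned to ATN1. H3K4me3 is high at start 2 (59.1) and low at start 1 (11.2), and the wide H3K27ac interval covers start 2 and the rest of the gene.

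PTPRC, on chromosome 1 (198638713 to 198757476, plus strand), had its strongest H3K27ac deep inside the gene and not at the start. The peak with its summit 43646 bp from the 5′ end (198682060 to 198685375) had a fold of 27.5 and 147 fragments (124 to 173). The interval on the start was 6593 bp wide, with a fold of 17.8 and 130 fragments (109 to 154). The counting intervals overlapped, and the expected background was 4.38 at the inner peak and 6.35 at the start, against a median of 3.63 over the list. H3K4me3 showed the other order: the peak on the start had a fold of 39.0, 208 fragments (181 to 238) and a width of 5518 bp, and the strongest of the inner peaks, next to the inner H3K27ac summit, had 12.7 and 49 fragments. The interval just before the inner peak (198677007 to 198682000) was 4994 bp wide, with an H3K27ac fold of 18.5 and 114 fragments. A record of the pseudogene PEBP1P3 lies 69 bp from the summit of that interval and 2234 bp from that of the inner peak. All 22 H3K27ac peaks of PTPRC lay in the first part of the window, up to 47405 bp from the 5′ end, and none in the remaining 3′ part of the record. None of the 22 overlapped the start of another protein-coding gene.

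The super-enhancer of PTPRC (198597544 to 198685375) was 87832 bp long, number 38 by length, and held 34 H3K27ac and 12 H3K4me3 peaks. It began 41169 bp before the gene and ended with the strong inner peak. Its H3K27ac signal was 69607 and its input signal 11822, a ratio of 5.89, below the median of 8.11. The order by ratio was 446, whereas by the difference of the signals the region ranked 50. Input per base was 0.135, against a median of 0.0996. The 2 super-enhancers of the members thus differ in form, that of PTPN7 short with a signal of 2.29 per base, that of PTPRC long with 0.792.

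PTPN22, on chromosome 1 (113813811 to 113871759, minus strand), had the narrowest and weakest H3K4me3 when each of the 7 genes is taken by its strongest peak at a start (the peak at start 1 of PTPN6 was narrower and weaker). The peak was 1418 bp wide with a fold of 35.5 and 145 fragments (122 to 171), at percentiles 13.9 by width and 13.2 by fold. Another H3K4me3 peak of 317 bp (113871845 to 113872161), with a fold of 4.71, lay just before the start and is not part of that width. H3K27ac over the start was broad, with 4313 bp, a fold of 22.05 and 114 fragments (94.0 to 137), at percentile 91.0 by width. Inside the gene, 11855 bp from the 5′ end, both marks met again, with an H3K27ac fold of 9.84 and an H3K4me3 fold of 11.8. The strongest peaks of the window lay at its far end, at the neighbour RSBN1, whose record ends 1334 bp from that of PTPN22, where H3K27ac had a fold of 23.8 and H3K4me3 of 66.7.

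PTPN11, PTPN1 and PTPN2, the members found in most tissues, had H3K4me3 at the start at percentiles 56.97, 72.2 and 55.7 by width, and H3K27ac at 51.4, 31.5 and 60.4. At PTPN11, on chromosome 12 (112418947 to 112509918), the H3K27ac peak was 1927 bp wide with a fold of 35.8 and 135 fragments (113 to 160), and the H3K4me3 peak 2793 bp wide with a fold of 80.7 and 304 fragments (271 to 340). RPL6, a ribosomal protein gene, lies 111 bp away, and both peaks also covered its nearer end, so that the marks of the 2 genes cannot be told apart. Elsewhere in PTPN11 the strongest peaks, 27582 bp and 28260 bp from that end, had a fold of 5.90 in H3K27ac and of 6.16 in H3K4me3.

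At PTPN2, on chromosome 18 (12785478 to 12884237, minus strand), H3K27ac on the 5′ end of the record was 2202 bp wide with a fold of 37.3 and 154 fragments (131 to 180), and H3K4me3 was 2753 bp wide with 62.5 and 295 fragments (262 to 331). The start that RefSeq lists inside the gene, at 12840962, had neither mark within 1 kb, and the nearest peaks were 1366 bp away for H3K27ac and 2290 bp for H3K4me3. Away from the start the 8 H3K27ac peaks of PTPN2 had folds of at most 6.52.

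PTPN1, on chromosome 20 (50510383 to 50585241, plus strand), combined the weakest H3K27ac at a start with the largest number of peaks. On the start H3K27ac had a fold of 17.0 and 102 fragments (83.2 to 124) over 1381 bp, and H3K4me3 a fold of 64.6 and 273 fragments (242 to 307) over 3319 bp. Just before the start lay a separate H3K27ac peak of 840 bp (50509359 to 50510198) with a fold of 11.8. An inner H3K27ac peak of 2329 bp, 30985 bp from the start, had a fold of 17.1 with 68 fragments (52.8 to 86.2) and an H3K4me3 peak of fold 10.3 beside it. Of the 29 H3K27ac peaks, 24 had no H3K4me3, and the strongest of these had a fold of 8.05. At least 20 H3K27ac peaks in the window, as at PTPN1 and PTPRC, were found at 629 genes (3.15% of all). Of these 259 overlapped a super-enhancer, PTPRC among them, and 370 did not, among them PTPN1.

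Across the members the order of the marks at the start differed between H3K27ac and H3K4me3. By fragments at the H3K27ac summit on the start PTPN7 (227) and PTPN6 (217) came first, followed by PTPN2 (154), PTPN11 (135), PTPRC (130), PTPN22 (114) and PTPN1 (102). The intervals of neighbours in this order overlapped at every step except from PTPN6 (189 to 248) to PTPN2 (131 to 180). By H3K4me3 the order was PTPN11 (304), PTPN2 (295), PTPN6 (279), PTPN1 (273), PTPN7 (242), PTPRC (208) and PTPN22 (145), and only the step from PTPRC (181 to 238) to PTPN22 (122 to 171) left a gap between intervals. By fold, the median of the members' strongest peak at a start was 35.8 for H3K27ac, against 22.98 over the 12752 genes with the mark at a start, and 59.1 for H3K4me3, against 63.0 over 13673 genes. By width the medians were 4313 bp against 1892 bp for H3K27ac and 3319 bp against 2579 bp for H3K4me3. The H3K27ac medians include PTPN7 (37.6 and 9214 bp), which was chosen by its H3K27ac signal, so these contrasts are partly set by the choice. The median H3K27ac fold of 35.8 is the value of PTPN11. Its peaks of both marks (135 and 304 fragments) also covered the nearer end of RPL6. Members with a wide H3K27ac interval (PTPN6, PTPN7, PTPRC and PTPN22, percentiles 91.0 to 99.8) were those known mainly from blood cells, and the remaining 3 stood at percentiles 31.5 to 60.4. The lowest, PTPN1, had 2 separate H3K27ac peaks within 1 kb of its start, and its percentile is that of the wider, of 1381 bp. This grouping of 7 genes includes PTPN7 and was not tested. Intervals wider than that of PTPN22 (4313 bp) were also found in the other gene lists. Among them were those of CSK (23026 bp), DUSP7 (5992 bp), SOS1 (5893 bp) and YES1 (4994 bp).

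**Figure D4:**
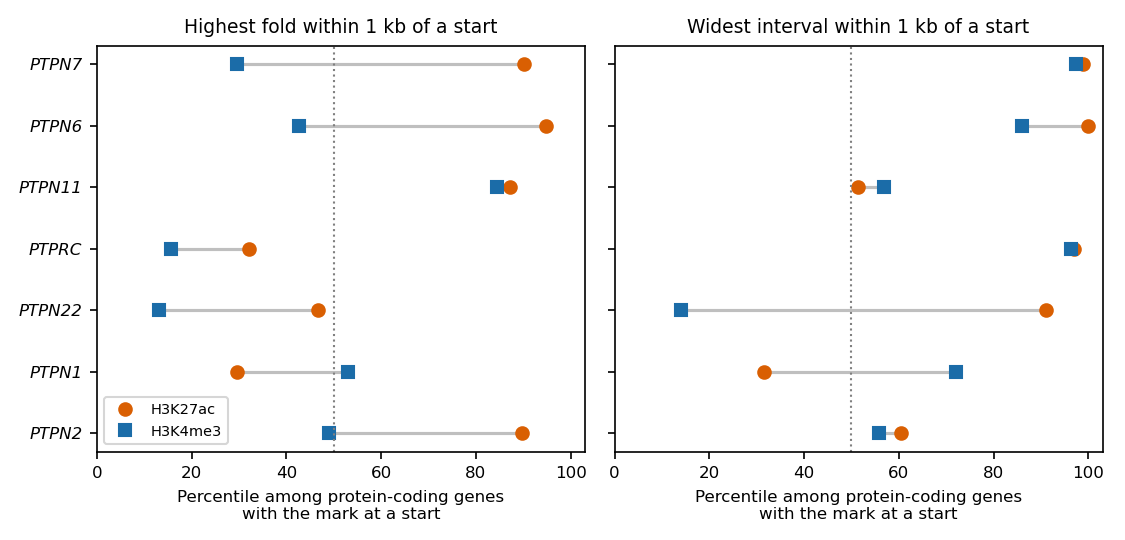
Percentile of each gene among protein-coding genes that carry the mark within 1 kb of a start, for the highest fold (left) and the widest interval (right); circles are H3K27ac, squares H3K4me3, and the dotted line is percentile 50. PTPN7, PTPN6 and PTPN2 are high in H3K27ac fold (percentiles 89.6 to 94.9) and below percentile 50 in H3K4me3 fold, and PTPN7, PTPN6 and PTPRC are wide in both marks.

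The promoters of these genes also differed in CpG content. PTPRC had 1 CpG in the 300 bases shown above, PTPN22 had 4, the 3 starts of PTPN7 had 8, 8 and 4, and starts 2 and 1 of PTPN6 had 10 and 12. PTPN1 had 33, the listed inner start of PTPN2 had 1, and the median of all promoters was 21. Of the 4018 promoters with 0 to 4 CpG, 15.2% had H3K4me3 and 19.1% H3K27ac within 1 kb, with a median H3K4me3 fold of 33.4 (interquartile range 9.16 to 57.5) in those that carried it. PTPRC (39.0), PTPN22 (35.5) and the peak on start 3 of PTPN7 lay within that range. Of the 11700 promoters with 20 or more CpG, 90.1% had H3K4me3, with a median fold of 66.1, and PTPN1 had 64.6. Of the 4 listed member starts in the class of 0 to 4 CpG, those of PTPRC and PTPN22 and start 3 of PTPN7 (51.3) carried both marks within 1 kb, and the inner start of PTPN2 carried neither.

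Away from the starts most H3K27ac peaks of the members were weak. Of the 83 H3K27ac peaks 9 lay within 1 kb of an own start, with a median fold of 35.8 and 135 fragments, and the other 74 had a median fold of 4.06 and 20.5 fragments. No H3K4me3 was present at 54 of the 83 (65.1%), close to the 64.0% of the whole list. Among the 37 H3K4me3 peaks 2 lacked H3K27ac (5.41%, against 16.2% of the list), 1 each at PTPN11 and PTPN1, with folds of 3.38 and 3.16. Of the peaks 27 of H3K27ac and 17 of H3K4me3 lay in super-enhancers, all at PTPN7, PTPRC and PTPN6. Those at PTPN7 follow from its choice by a super-enhancer, and those at PTPN6 lie in the region assigned to ATN1. The share of all peaks that lie in super-enhancers is not given here, so the counts are a description only.

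Among the 30 other classical tyrosine phosphatases none was a super-enhancer target (2.25% of all protein-coding genes were). Of the 11 other non-receptor genes 8 carried both marks at a start, led by PTPN12 (H3K27ac 39.1, H3K4me3 80.5). PTPN21 had H3K4me3 only (44.1), and PTPN5 and PTPN20 had neither. PTPN5 and PTPRR are the closest relatives of PTPN7 and bind the same MAP kinases, and no peak of either mark lay in their windows. Of the 19 other receptor genes 9 had both marks, led by PTPRG (38.9 and 85.7), and 5 had neither, namely PTPRB, PTPRN, PTPRQ, PTPRR and PTPRT. The median H3K27ac fold of receptor genes with the mark was 7.35, against 21.2 in the non-receptor list. In all, 24 of the 37 classical genes, members included, had both marks, against 61.8% of genes. Neither mark was found at 7 of the 37, against 29.5% of genes.

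**Figure D5:**
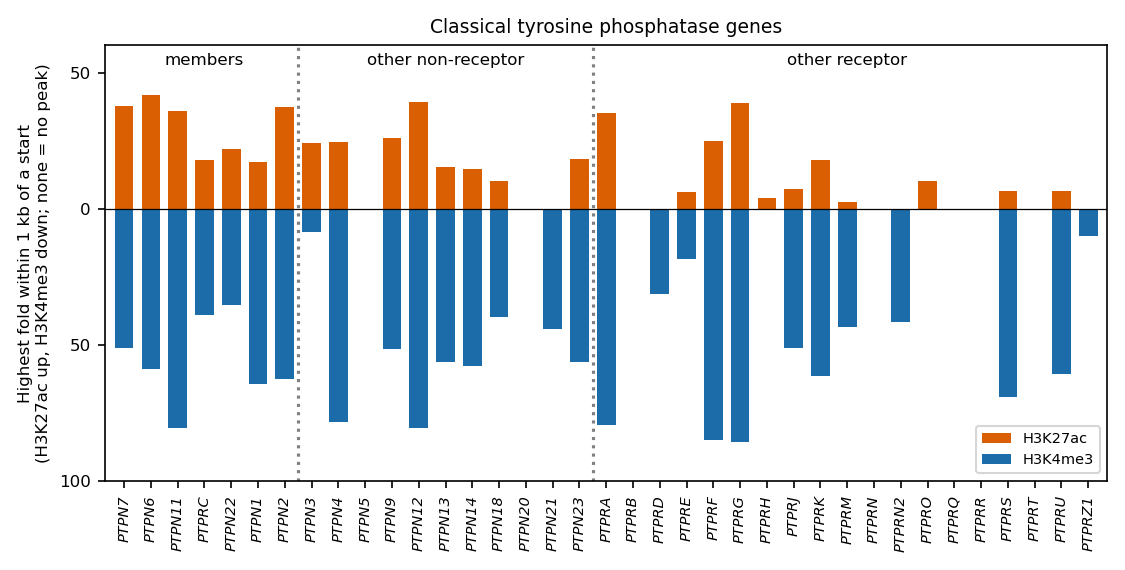
Highest fold of a peak within 1 kb of a start in the 37 classical tyrosine phosphatase genes, H3K27ac upwards and H3K4me3 downwards, with no bar where there was no peak. The 7 members, at the left, carry both marks at every gene, as do 61.8% of all protein-coding genes. Of the other 30 genes 7 carry neither, against 29.5% of all protein-coding genes.

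Genes that act with the members were marked to different degrees. The 10 MAP kinase phosphatases, dual-specificity enzymes that share substrates with PTPN7, all carried both marks, with the highest folds at DUSP7 (38.7 and 96.1). So did the MAP kinases MAPK3 (27.9 and 64.4) and MAPK14 (44.6 and 86.8), substrates of PTPN7, and the 6 adaptors of PTPN11, with the highest folds at SOS1 (47.2 and 93.4). The adaptor genes GAB2 and GRB2 were super-enhancer targets, with signal ratios of 5.68 and 7.21. Of 17 tyrosine kinases that the members counter or switch on, 14 carried both marks. The highest folds were at YES1 for H3K27ac (45.3) and at JAK1 for H3K4me3 (86.6). ZAP70 had neither at a start, but its window held 4 H3K27ac peaks of up to 22.1 and 1 H3K4me3 peak of 17.5. LCK had both at a start (18.7 and 4.22). The kinases LYN and SYK were super-enhancer targets (2.25% of all protein-coding genes were), with ratios of 5.58 and 5.13. The region of LYN did not overlap the gene record with 5 kb either side. Its input signal per base was 0.184, against a median of 0.0996 over all regions. Against 61.8% of all genes, only 8 of 19 inhibitory receptors that recruit PTPN6 or PTPN11 had both marks. LAIR1 had folds of 47.6 and 63.6 and a super-enhancer with a ratio of 14.1, number 20 in the table. CD33, a surface antigen of myeloid cells, had 30.6 and 47.5, and SIRPA 36.7 and 51.1. Neither mark was found at a start of 9 of the 19, against 29.5% of all genes, among them LILRB3, LILRB4 and SIGLEC5. LILRB and SIGLEC genes have close copies, so that reads may be shared or lost between them.

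The genes most like PTPN7 were sought by the percentiles of 3 measures in the window of 5 kb either side, namely the highest H3K27ac fold, the highest H3K4me3 fold and the share covered by H3K27ac. The 5 nearest of the protein-coding genes were PEAK3, PRR14, ARRDC1, DUSP3 and TNFSF12, at distances of 1.18 to 1.72 percentile units. They had H3K27ac folds of 36.8 to 38.6, H3K4me3 folds of 88.6 to 93.1 and covered shares of 48.8% to 56.8%, against 37.6, 90.3 and 58.1% at PTPN7. PEAK3 was also a super-enhancer target. The likeness rests on 2 libraries of 1 cell line, and the H3K4me3 fold of PTPN7 in it is that of a peak away from its own starts, where the fold was 51.3.

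Over the whole lists the median peak had 21 fragments at the summit for H3K27ac and 39 for H3K4me3, and the highest had 307 and 345. Of the marker genes used to check the cell line, SPI1 and CD33 of myeloid cells and KIT of progenitors carried both marks at a start, with H3K27ac folds of 30.5, 30.6 and 14.4. MPO, a granulocyte gene, had an H3K27ac fold of 11.03 and an H3K4me3 fold of 13.3. CD3E of T cells (18.2 and 14.2) also had peaks of both marks within 1 kb of a start, and ALB of liver had none.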

How the data were processed

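Chromatin from KBM7 cells was immunoprecipitated for H3K27ac and H3K4me3, with 1 library each and 1 input library. Per the submitters' processing notes, Bowtie2 2.3.4, bedtools 2.20.1 and hg38 were used; no peak caller is named there. Each deposited peak list gives a score, a fold enrichment at the summit, and the −log10 p and −log10 q of each peak; the fold is the authors' own value and was used only within 1 list. The deposited super-enhancer table gives total H3K27ac and input signal per region, a score that is their difference and a rank by it. Per its file name, targets were chosen on expression in TT-seq, so they are no independent sign of expression.

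Fragments at the summit were recovered as the whole-number pileup for which fold is (pileup + 1)/(expected + 1) and p is an upper Poisson tail. Both fitted within 0.01 on the −log10 scale in 100% of peaks. Whether fragments were deduplicated is not given, so intervals cover counting error only. Gene records and promoters came from RefSeq (GRCh38.p14). A start was the 5′ end of the record or a listed start. Of 19974 genes, those without a listed strand were tested at both ends. Peaks counted with an overlap of 1 bp. Python 3.11.15, pandas 2.3.3 and scipy 1.17.1 were used, and overlap and pileup code was tested on simulated data. The members and gene lists were chosen with earlier results of these data known. Named from each list were super-enhancer targets, the highest fold of each mark, and up to 5 genes with neither mark (otherwise the first 3); other named genes were chosen after their values were seen. Some items that this rule would name are not reported here. Alternatives changed the window, the peak cut-off, the overlap and the order of super-enhancers.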

Additional observations from a re-analysis of the deposited data

How the results depend on the processing

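With the top 50% of peaks by fold the members kept 41 H3K27ac and 15 H3K4me3 peaks of 83 and 37, and 5 inhibitory receptors had both marks in place of 8. All 7 members had both marks at a start with that cut-off, with 500 bp and with 2 kb. The order of PTPN7 by the signal ratio, 1, became 253 by the difference and 3 by the difference per base, and that of PTPRC, 446, became 50 by the difference. The other recomputed totals stayed within 1.5 times. Of 84 recomputed values of single members 23 moved further, over changes of window, cut-off or overlap. No paired analysis was possible because each mark has 1 library, and no library could be left out. Depth limits weak peaks: those away from the starts held a median of 20.5 fragments for H3K27ac.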
